A study of Mus musculus with 9 samples.

Results

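The transcripts described here are noncoding hosts of small nucleolar RNAs (snoRNAs). Gas5, Snhg1, Snhg3, Snhg4, Snhg5, Snhg6, Snhg8, Snhg12, Snhg15 and Snhg20 were followed through an RNA immunoprecipitation of phosphorylated UPF1 from activated mouse B cells. They were chosen by name, through their NCBI Gene IDs. All 10 had a row among the 27179 genes of the count table, and 9 of them were among the 13129 genes with enough reads to test. Snhg3 was the one that was not.

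A snoRNA host gene is transcribed and spliced like an mRNA. Its introns are processed into snoRNAs, which guide the chemical modification of ribosomal RNA, while the spliced exons form a transcript with short or no reading frames. Several of these spliced transcripts are known to be degraded by nonsense-mediated mRNA decay (NMD), the pathway in which the RNA helicase UPF1 is phosphorylated by the kinase SMG1 when a ribosome stops well upstream of an exon junction. Gas5 (growth arrest specific 5) is the classic example. Its name comes from its accumulation in cells that have stopped growing.

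The libraries were made from CD43-negative B cells of wild-type mouse spleen, cultured for 72 h with CD40L at 5 ug/mL, anti-IgM at 10 ug/mL and IL-4 at 20 ng/mL. The 3 groups, of 3 libraries each, all came from cells that had received the same 3 stimuli. They were RNA of the whole lysate (input), RNA recovered with normal rabbit IgG (IgG), and RNA pulled down by an anti-phospho-UPF1 antibody (p-UPF1). The submitters' labels do not state whether the libraries of a group came from separate mice or cultures, so the p-values describe the spread between these libraries. By the study's methods, the input was part of the lysate and the rest was incubated with antibody. Libraries of different groups may thus share a lysate, which the labels do not give. The labels call the CD40 stimulus CD40L, whereas the study's methods name an antibody to CD40. The labels give no age for the animals.

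Total counts were 17372510 to 24945286 per library. The B cell markers Cd79a, Cd79b, Ms4a1 and Cd74 stood at 270 ± 5.1, 1229 ± 1.5, 726 ± 12.7 and 5977 ± 79.4 CPM (counts scaled to a fixed library total) in the input libraries (SD, n = 3), and the markers of T cells, NK cells, myeloid cells, red cells and platelets summed to less than 1 CPM each in every library. CPM values here are scaled by edgeR's trimmed mean of M-values (TMM), which sets the typical gene to no change, so that every fold change is set against the typical RNA and not against the amount of RNA recovered. Most genes differed between pulldowns. In p-UPF1 over IgG, 40.4% of all genes tested were higher and 42.2% lower with a Benjamini-Hochberg adjusted p below 0.05 (edgeR, quasi-likelihood). A call for a host gene is read against these shares.

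The snoRNAs inside these hosts were annotated by RefSeq on GRCm38.p6, the assembly that mm10 names. The annotation places 28 snoRNA genes in 9 of the 10 hosts, of which 11 had their own row of counts. Gas5 and Snhg1 hold 8 each, Snhg12 holds 4, Snhg3 and Snhg5 hold 2 each, and Snhg4, Snhg6, Snhg8 and Snhg15 hold 1 each. Snhg20 holds none in this annotation. All but Snora24 lie wholly within introns. Snora24 lies inside the single annotated exon of Snhg8. Among the snoRNAs with counts, 3 are printed here because their rows are set beside those of their hosts. Snord47 and Snord87 are box C/D snoRNAs, which guide 2′-O-methylation, and Snora16a is a box H/ACA snoRNA, which guides pseudouridylation. Capitals mark the letters TGATGA in the first 20 bases and CTGA in the last 20 bases of box C/D snoRNAs (the C and D boxes), and ACA in the last 10 bases of the box H/ACA snoRNA, searched on the transcribed strand only. Snord47 lies at chr1:161038092-161038156 on the plus strand, Snord87 at chr1:9942470-9942543 on the minus strand and Snora16a at chr4:132309465-132309600 on the plus strand.
Snord47 (in Gas5): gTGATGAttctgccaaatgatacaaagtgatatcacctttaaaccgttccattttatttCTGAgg
Snord87 (in Snhg6): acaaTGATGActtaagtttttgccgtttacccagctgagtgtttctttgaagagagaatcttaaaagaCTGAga
Snora16a (in Snhg12): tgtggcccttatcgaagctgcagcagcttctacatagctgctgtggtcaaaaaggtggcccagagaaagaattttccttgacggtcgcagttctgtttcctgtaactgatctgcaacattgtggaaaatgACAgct
Among the 93 annotated genes named Snord, 46.2% held TGATGA and 98.9% CTGA in these windows, and among the 39 named Snora, 94.9% held ACA. In the other class the shares were 0% for TGATGA, 10.3% for CTGA and 3.23% for ACA.

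**Figure D1:**
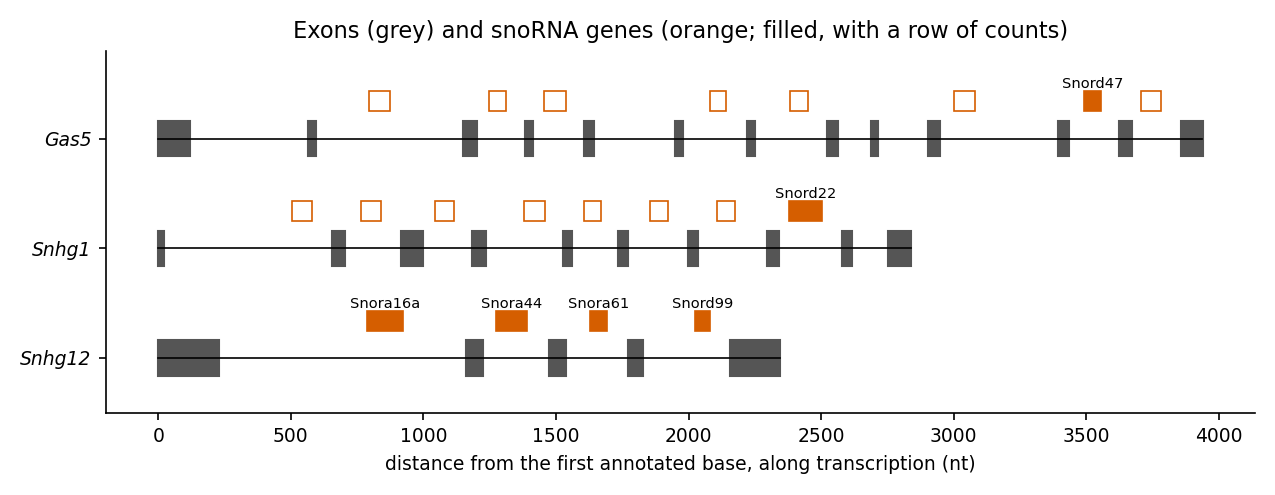
Gene maps of Gas5, Snhg1 and Snhg12, drawn to scale from the first annotated base along the direction of transcription (x axis, nt). Grey boxes are exons of all annotated transcripts and orange boxes snoRNA genes, filled where the count table has a row for them. In Gas5 and Snhg1 only Snord47 and Snord22 had one, and in Snhg12 all 4 did.

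Gas5 was the most abundant of the hosts. It lies at chr1:161034601-161038539 on the plus strand, with 8 annotated transcripts of 6 to 12 exons. In the input libraries A, B and C it stood at 438, 423 and 400 CPM (421 ± 19.1, SD, n = 3). The IgG libraries held 1199, 1001 and 957 CPM (1052 ± 129) and the p-UPF1 libraries 556, 527 and 546 CPM (543 ± 14.9). All 3 IgG libraries lay above all the others, and all 3 p-UPF1 libraries lay above the input. Gas5 was thus higher in p-UPF1 than in the input by 0.37 on the log2 scale (SE 0.065, adjusted p = 6.998e-05 by edgeR with Benjamini-Hochberg adjustment), but lower than in IgG, by a log2 fold change of -0.96 (SE 0.065, adjusted p = 6.213e-10). IgG over input was its largest difference, 1.32 (SE 0.066, adjusted p = 3.713e-10), above that of 98.8% of the genes tested.

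Of the 10 hosts, 3 had every IgG library above every other library, a pattern shared by 8.72% of all genes tested. The other two were Snhg8 and Snhg20. Snhg8, a single-exon gene in this annotation (chr3:123507552-123508336, minus strand), stood at 28.7, 29.9 and 28.6 CPM in the input, 49.9, 39.3 and 32.6 in IgG and 26.2, 24.7 and 27.0 in p-UPF1. Snhg8 was lower in p-UPF1 than in IgG (log2 fold change -0.65, SE 0.110, adjusted p = 4.728e-05, edgeR). Against the input its p-UPF1 libraries were all lower, but the difference of -0.16 did not pass the test (SE 0.112, adjusted p = 0.1847, edgeR). It passed without IgG library A (-0.17, adjusted p = 0.02639) and in a fit of these 2 groups alone (-0.14, adjusted p = 0.02107).

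Snhg20 (chr11:117076783-117078955, plus strand) was the least abundant host that could be tested. Its CPM values were 8.31, 7.47 and 8.46 in the input, 18.7, 15.9 and 12.3 in IgG and 2.70, 1.67 and 2.18 in p-UPF1. The 3 groups did not overlap. The p-UPF1 values rest on 64, 37 and 48 counts. Its log2 fold change of -2.83 over IgG (SE 0.180, adjusted p = 2.392e-10, edgeR) was the lowest of the hosts, and only 1.82% of all genes tested had a lower one. Over the input, it was -1.88 (SE 0.190, adjusted p = 9.818e-08, edgeR).

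In 3 hosts, Snhg4, Snhg8 and Snhg20, every p-UPF1 library lay below every other library, as in 37.6% of all genes. Snhg4 lies on chromosome 18 and has 4 exons. It stood at 22.7, 23.0 and 20.5 CPM in the input, 29.9, 23.0 and 23.2 in IgG and 8.68, 7.72 and 7.07 in p-UPF1. Snhg4 was lower in p-UPF1 than in IgG by a log2 fold change of -1.69 (SE 0.115, adjusted p = 5.736e-10, edgeR) and than in the input by -1.50 (SE 0.115, adjusted p = 2.877e-09). The IgG and input libraries overlapped, and their difference of 0.20 did not pass (adjusted p = 0.1191).

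In 4 hosts, Snhg1, Snhg5, Snhg12 and Snhg15, every p-UPF1 library lay above every other library, as in 37.0% of all genes. Snhg15 (chr11:6525591-6528760, minus strand, 4 exons) had 102, 97.4 and 97.7 CPM in the input, 120, 112 and 104 in IgG and 258, 257 and 257 in p-UPF1. Its log2 fold change of 1.20 over IgG (SE 0.049, adjusted p = 6.142e-13, edgeR) was the highest of the hosts, above that of 81.3% of all genes. Over the input it was 1.38 (SE 0.049, adjusted p = 8.808e-14). The p-UPF1 libraries differed from each other by far less than from either control.

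Snhg5 (chr9:88521052-88522897, minus strand, 5 exons) had 59.1, 59.0 and 55.6 CPM in the input, 92.5, 80.9 and 67.9 in IgG and 169, 168 and 168 in p-UPF1. It was higher in p-UPF1 than in IgG by 1.07 on the log2 scale (SE 0.075, adjusted p = 9.57e-10, edgeR), and than in the input by 1.54 (SE 0.077, adjusted p = 8.243e-12). Its 3 groups did not overlap, with IgG between the other two.

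Snhg1 (chr19:8723487-8726326, plus strand, 10 exons), the second most abundant host in p-UPF1, had 127, 124 and 115 CPM in the input, 305, 244 and 232 in IgG and 338, 327 and 324 in p-UPF1. The gap between its highest IgG library and its lowest p-UPF1 library was small beside the spread of the IgG libraries. Its difference over the input was large (log2 fold change 1.44, SE 0.077, adjusted p = 2.235e-11, edgeR), and that over IgG was small (0.34, SE 0.075, adjusted p = 0.0005125). The value over IgG was 0.18 with library size alone (adjusted p = 0.04859, edgeR) and 0.20 with upper-quartile factors (adjusted p = 0.02496). Without IgG library A it was 0.47 (adjusted p = 3.326e-09, edgeR). IgG itself was above the input by 1.10 (SE 0.078, adjusted p = 1.43e-08).

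Snhg12 (chr4:132308678-132311024, plus strand, 5 exons) had 77.3, 75.2 and 72.4 CPM in the input, 92.7, 80.3 and 68.5 in IgG and 114, 109 and 115 in p-UPF1. It was higher in p-UPF1 than in IgG by 0.49 on the log2 scale (SE 0.076, adjusted p = 1.851e-05, edgeR) and than in the input by 0.59 (SE 0.076, adjusted p = 1.991e-06). With the counts of its snoRNA rows added to its own, the value over IgG was 0.09 and no longer passed (adjusted p = 0.3249, edgeR), while IgG over input went from 0.10 to 0.47 and passed (adjusted p = 0.0001666). Whether reads of the snoRNA rows came from the host's transcript was not tested.

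Snhg6 and Snhg3 complete the set. Snhg6 (chr1:9942025-9944118, minus strand, 4 exons) had 84.5, 84.3 and 81.3 CPM in the input, 87.4, 68.0 and 74.0 in IgG and 86.4, 82.5 and 81.0 in p-UPF1. All groups overlapped. It gave 0.13 on the log2 scale for p-UPF1 over IgG (SE 0.070, adjusted p = 0.1072, edgeR). For p-UPF1 over input it gave -0.00 (SE 0.069, adjusted p = 0.9889, edgeR). Without IgG library A the value over IgG was 0.23 and passed (adjusted p = 0.0002673, edgeR). Snhg3 (chr4:132351933-132353686, minus strand, 3 exons) had 5 counts in IgG library A, 2 in input library A and 0 in the other libraries. For p-UPF1 a count of 0 allows up to 0.126 to 0.136 CPM per library (3 counts), so that no difference was detectable at this depth.

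**Figure D2:**
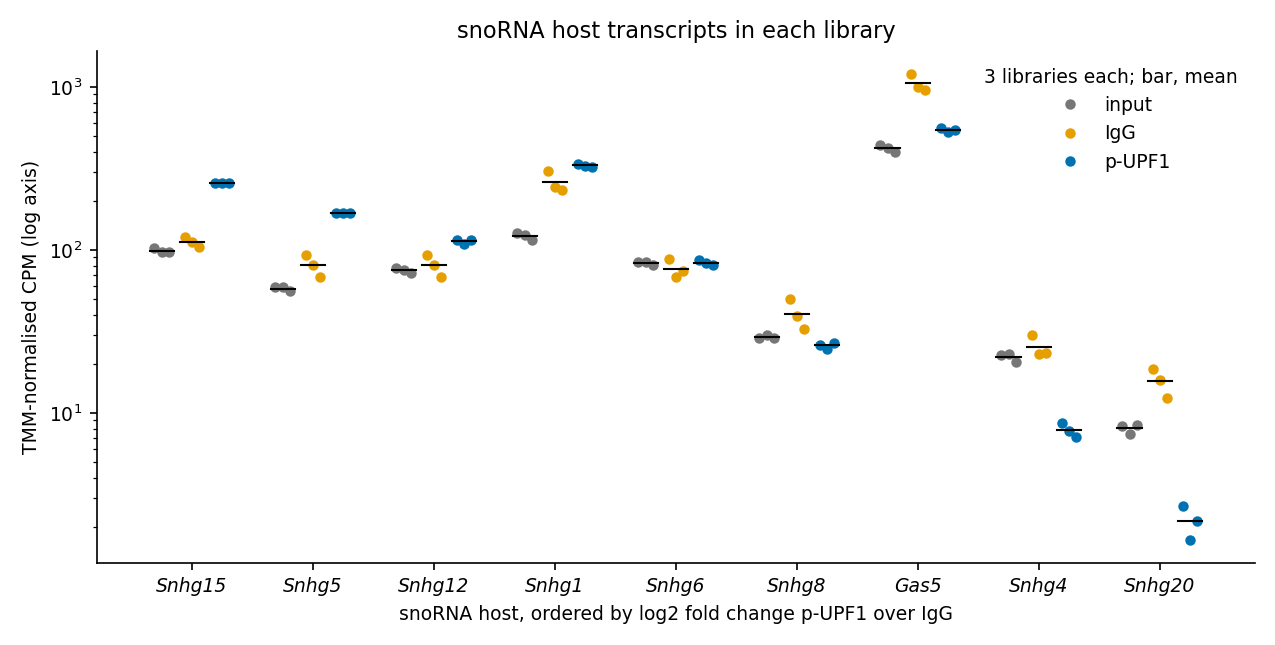
TMM-normalised CPM (y axis, log scale) of the 9 tested hosts in each input, IgG and p-UPF1 library. Points are libraries A, B and C from left to right and bars the mean of 3. The p-UPF1 libraries of Snhg15, Snhg5, Snhg12 and Snhg1 lie above all others, and the IgG libraries of Gas5, Snhg8 and Snhg20 do, relative to the typical RNA; scaled to equal mitochondrially encoded mRNA, every host would be highest in p-UPF1.

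Across the 9 tested hosts, 4 were higher and 4 lower in p-UPF1 than in IgG, beside 40.4% and 42.2% of all genes, and the median log2 fold change was 0.13 beside -0.03 for all genes. Both directions were thus about as frequent in the hosts as in all genes. Over the input, 5 were higher and 2 lower, beside 40.8% and 42.6% of all genes, with a median of 0.37 beside -0.03. Those higher were Gas5, Snhg1, Snhg5, Snhg12 and Snhg15, and those lower Snhg4 and Snhg20. IgG over input gave 6 higher (Gas5, Snhg1, Snhg5, Snhg8, Snhg15 and Snhg20) and 0 lower, beside 18.2% and 34.7% of all genes, with a median of 0.47 beside -0.10. At an unadjusted p under 0.05, or by DESeq2 or limma-voom, the number lower was also 0. The 3 comparisons share libraries, so they are not independent of each other.

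These directions hold relative to the typical RNA. Mitochondrially encoded mRNAs, which lie inside an organelle, were 2.14% ± 0.095 of counts in IgG and 0.0740% ± 0.0036 in p-UPF1 (SD, n = 3). Scaled so that these mRNAs are equal, the median of all genes moved by 4.69 on the log2 scale for p-UPF1 over IgG, and all 9 tested hosts, the 4 lower ones included, were then higher in p-UPF1, beside 99.4% of all genes. The share of counts on the 10 hosts together was 0.0902% ± 0.0034 in the input, 0.186% ± 0.027 in IgG and 0.146% ± 0.0031 in p-UPF1. This share is scaled by each library's total count, so it depends on the other RNAs of the library. Ribosomal protein genes, for example, were 5.5% of counts in IgG and 0.87% in p-UPF1. Gas5 was the largest part of the hosts' share in each group.

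The study called an RNA bound by p-UPF1 from a minimum log2 fold change in both comparisons, 1 against IgG and 2 against the input. By this rule with adjusted p-values under 0.05, 0 of the 9 tested hosts qualified, beside 6.25% of all genes tested. Scaled to equal mitochondrially encoded mRNA, which raised all genes alike, 9 of 9 did, beside 96.9% of all genes. Only Snhg5 and Snhg15 passed the minimum over IgG, and no host passed that over the input, where Snhg5 came nearest with 1.54. Snhg5 fell under the minimum over IgG without IgG library C (0.96), and with upper-quartile factors (0.93), library size alone (0.90) or an input library as TMM reference (0.98). In edgeR's test at the adjusted p alone, 4 hosts were higher over IgG and 5 over the input, as given above.

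**Figure D3:**
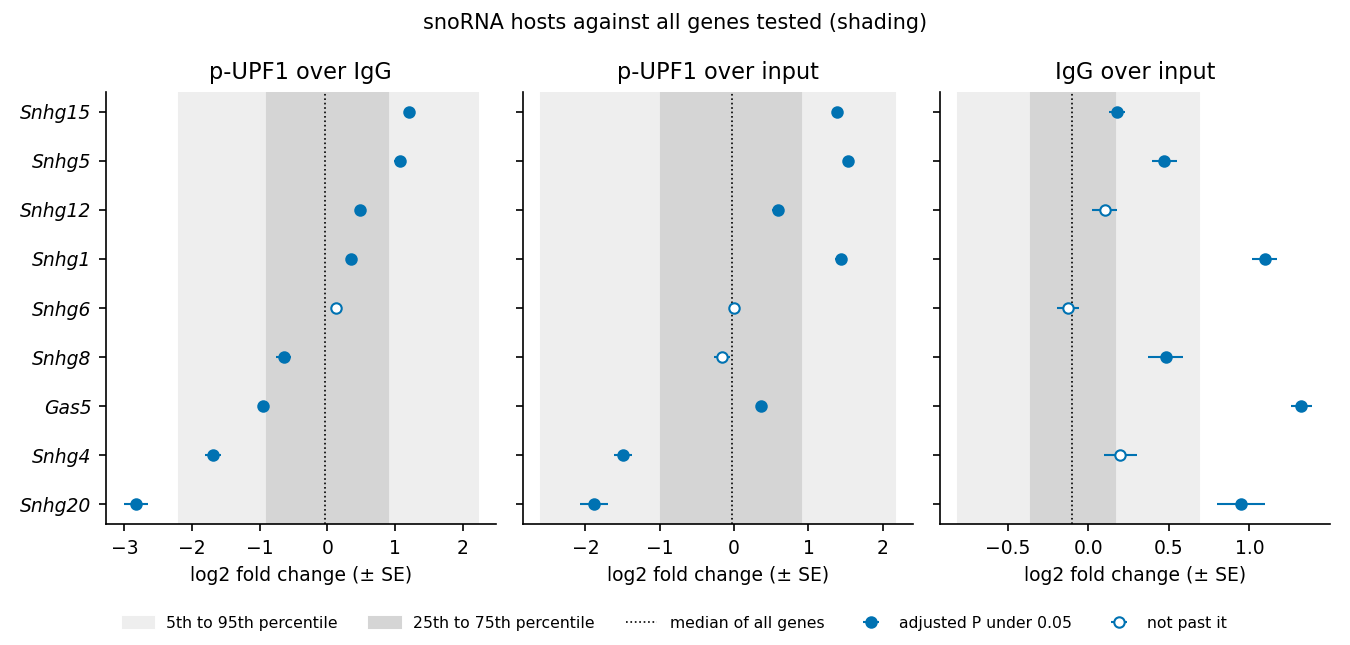
Log2 fold change (x axis, points with SE) of the 9 tested hosts in the 3 comparisons, with the 5th to 95th and 25th to 75th percentiles of all 13129 genes in grey and their median dotted. Filled points passed an adjusted p of 0.05. Snhg15 and Snhg5 lie above the 25th to 75th percentile range of p-UPF1 over IgG and Snhg20 lies below the 5th percentile; Gas5, Snhg1 and Snhg20 lie beyond the 95th percentile of IgG over input. Scaled to equal mitochondrially encoded mRNA, every host would be above 0 for p-UPF1 over IgG.

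The IgG libraries varied more than the others for these genes. IgG library A was the highest IgG library for all 9 tested hosts, which held for 33.6% of all genes tested. The SD over the 3 IgG libraries was 39.1 CPM for Snhg1, beside 6.23 in the input and 7.48 in p-UPF1, and for Snhg5 it was 12.3 beside 1.98 and 0.48. Leaving out IgG library A turned no direction of a called value. It brought Snhg6 to a call for IgG over input, at a log2 fold change of -0.24 (adjusted p = 0.0004005, edgeR), beside the calls gained by Snhg6 over IgG and by Snhg8 over the input given above.

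Levels per length put the hosts on 1 scale. In the input, CPM per kilobase of exon were 679 ± 30.8 for Gas5, 256 ± 13.1 for Snhg1, 205 ± 4.3 for Snhg6, 167 ± 4.3 for Snhg15, 124 ± 4.1 for Snhg12, 57.3 ± 2.0 for Snhg5, 37.0 ± 0.93 for Snhg8, 19.2 ± 1.2 for Snhg4 and 13.5 ± 0.89 for Snhg20 (SD, n = 3), so that neighbours in this order stood further apart than their SDs. In p-UPF1 Gas5 (875 ± 24) and Snhg1 (692 ± 15.7) stayed the highest, and Snhg15 (435 ± 1.2) came next. Snhg6 (205 ± 6.8) was then followed by Snhg12 (186 ± 4.8) and Snhg5 (167 ± 0.47). These levels use the union of annotated exons, which for Gas5 merges 8 transcripts.

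The rows of the snoRNAs themselves differed from those of their hosts. All 9 tested snoRNA rows were lower in p-UPF1 than in IgG (median log2 fold change -1.94, from -3.84 for Snord87 to -1.14 for Snora74a), at adjusted p-values of up to 0.03395 by edgeR, beside 42.2% of all genes. In IgG over input, 8 of the 9 snoRNA rows passed as higher (median 2.62), beside 18.2% of all genes. Scaled to equal mitochondrially encoded mRNA, the direction over IgG would shift with that of all genes. Snord47, in Gas5, stood at 2.11, 2.52 and 2.50 CPM in the input, 16.5, 14.7 and 14.3 in IgG and 3.2, 2.89 and 2.49 in p-UPF1. Its IgG libraries lay far above the overlapping other groups, and its IgG over input value of 2.68 was larger than the 1.32 of Gas5.

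Snord87 and Snhg6 were further apart. Snord87 had 124, 86 and 87 counts in the IgG libraries, 15, 9 and 18 in the input and 8, 10 and 6 in p-UPF1, a log2 fold change of 2.96 for IgG over input (adjusted p = 4.649e-07, edgeR), where the host gave -0.13. The 4 snoRNA rows in Snhg12 were higher in IgG than in the input by 1.62 (Snora61) to 2.98 (Snora44), where the host gave 0.10. Snord22, in Snhg1, was the only snoRNA row that passed the test as higher in p-UPF1 than in the input, by 1.45 (adjusted p = 3.511e-07, edgeR), a value next to the 1.44 of Snhg1. The median of the tested snoRNA rows over the input was 0.11. Snora73a, in Snhg3, held 4.24 ± 0.43 CPM in the input and 18.4 ± 1.5 in IgG, although the row of Snhg3 was at or near 0. Snora73b and Snora24 had 0 counts in every library.

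**Figure D4:**
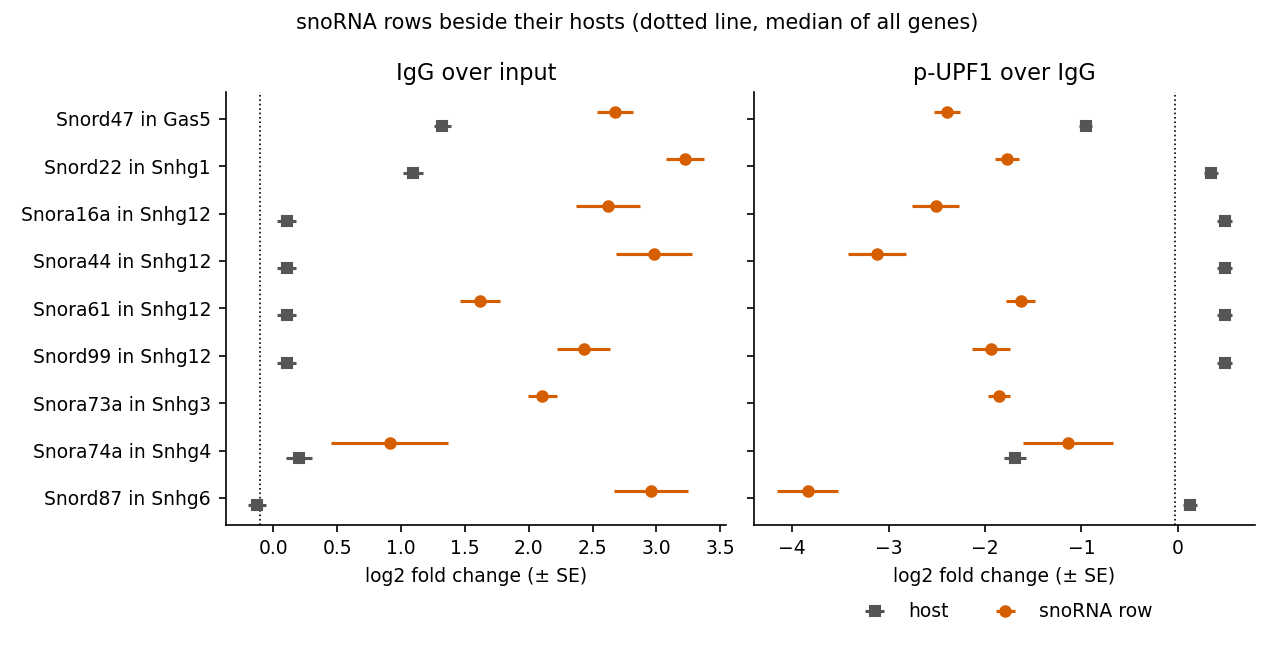
Log2 fold change (x axis, points with SE) of each tested snoRNA row (orange circles) beside its host (grey squares), for IgG over input and p-UPF1 over IgG, with the median of all genes dotted. All snoRNA rows lie right of their tested hosts in the first panel, and all but Snora74a lie left of them in the second; Snhg3 was not tested and has no square.

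The labels name polyA RNA as the molecule, mature snoRNAs carry no poly(A) tail, and a row that holds intron reads of the host's precursor cannot be told apart here from one that holds the mature snoRNA. Of 1330 snoRNA genes in the reference, 123 had a row. The 17 nested snoRNAs with no row are not described.

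The first reading frame of each host was read from the annotated transcripts, since the distance from its stop codon to the next exon junctions is the feature by which NMD recognises many RNAs. The first ATG with an in-frame stop was taken, and junctions more than 50 nt after the stop were counted. The frames of Gas5, of both hosts with the highest and of the host with the lowest p-UPF1 over IgG are printed with start and stop codons in capitals.
Gas5: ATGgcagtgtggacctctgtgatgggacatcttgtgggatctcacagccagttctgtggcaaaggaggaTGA
Snhg15: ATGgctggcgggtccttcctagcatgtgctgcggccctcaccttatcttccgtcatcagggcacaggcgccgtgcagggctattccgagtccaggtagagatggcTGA
Snhg5: ATGaccaagTGA
Snhg20: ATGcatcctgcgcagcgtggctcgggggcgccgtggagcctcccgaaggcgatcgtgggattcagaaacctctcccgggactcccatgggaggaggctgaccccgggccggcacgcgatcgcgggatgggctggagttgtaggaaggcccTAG
The frame of Gas5 is the same in its 8 annotated transcripts, 23 codons before the stop, and 1 to 7 junctions follow it, depending on the transcript. Snhg5 has a frame of 3 codons with 4 junctions after it, Snhg15 one of 35 codons with 3 junctions and Snhg20 one of 50 codons with 1 junction. Snhg1 has 40 codons and 5 junctions, Snhg12 54 codons and 3 junctions, and Snhg6 53 codons and 1 junction. No junction lies more than 50 nt after the first stop in Snhg3 (42 codons), Snhg4 (15 codons) or Snhg8 (1 codon).

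Set beside the pulldown, the 5 tested hosts with 3 or more such junctions in at least 1 transcript held the 4 that were higher in p-UPF1 than in IgG (Snhg1, Snhg5, Snhg12 and Snhg15) and 1 that was lower (Gas5). The 4 hosts with fewer held 0 higher, 3 lower (Snhg4, Snhg8 and Snhg20) and Snhg6, which did not pass. This arrangement was seen after the values were known, and it was not tested. Of the 3 other noncoding snoRNA hosts tested with 3 or more such junctions, 2 were higher and Zfas1, with 4, did not pass (-0.08). Of the 5 with fewer, 1 was higher, 2 were lower and 2 did not pass, and the higher one, Epb41l4aos with at most 2, had the highest value of all noncoding hosts tested (1.59). Among the long noncoding RNAs tested, with only the hosts described here left out, the median log2 fold change of p-UPF1 over IgG was -0.27 for 137 with no such junction, 0.24 for 193 with 1 to 2 and 0.56 for 102 with 3 or more, with quartiles of -1.76 and 1.21, -0.59 and 1.33, and -0.36 and 1.46. These ranges overlap widely. The calls were 49 higher and 56 lower with none, 70 and 47 with 1 to 2, and 48 and 21 with 3 or more, beside 40.4% and 42.2% of all genes. This set is not separate from the other noncoding hosts, and its cut at 3 repeats that of the hosts. Whether activated B cells use the annotated transcripts and start codons was not tested.

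Other noncoding snoRNA hosts moved in both directions, as all genes did. Of 11 listed, 8 were tested. In p-UPF1 over IgG, 3 were higher and 2 lower, beside 40.4% and 42.2% of all genes. Epb41l4aos rose by 1.59, Snhg17 by 1.31 and Snhg16 by 1.29 on the log2 scale (adjusted p-values of 6.423e-11, 1.381e-11 and 4.119e-12, edgeR). Snhg7 was lower by a log2 fold change of -1.20 and Dancr by -2.10 (adjusted p = 2.58e-08 and 7.817e-09). Zfas1, the most abundant of them at 149 ± 4.2 CPM in the input, had -0.08 (adjusted p = 0.2671). Snhg17, at 2.06 over the input, was the one of these that met the rule for bound RNAs, as did 6.25% of all genes. As in the hosts described above, none was called lower in IgG than in the input and 6 of 8 were higher. Of all genes, 34.7% were lower and 18.2% higher in that comparison. Snhg9, Snhg11 and Snhg14 had too few reads to test.

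Protein-coding snoRNA hosts fell into 2 classes. Among ribosomal protein genes that hold snoRNAs, 29 of 29 tested were lower in p-UPF1 than in IgG, beside 42.2% of all genes. The median log2 fold change of these hosts was -2.77, and 82 of 83 tested ribosomal protein genes in all were lower (median -2.85). Gas5, at -0.96, lay above all 29 of these hosts (highest value -1.64). Among 153 other tested protein-coding hosts, 56 were higher, 77 lower and 20 did not pass, with a median of -0.19, and 5 met the rule for bound RNAs. Of all genes tested, 40.4% were higher, 42.2% were lower and 6.25% met that rule. At a mean of 10 CPM or more over the 9 libraries, the highest of these hosts were Gpr107 (3.02), Marchf1 (2.72) and Frmd4b (2.60), which met that minimum only through p-UPF1 (4.04 CPM in the input, 4.02 in IgG and 24.4 in p-UPF1), and the lowest Tpt1 (-3.59), Cox7c (-3.07) and Cks2 (-2.93).

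Of the 8 mRNAs for core snoRNP proteins, 7 were lower in p-UPF1 than in IgG (median -1.12), among them Fbl, the box C/D methyltransferase, at -2.09, and 1 was higher, Dkc1, the box H/ACA pseudouridine synthase, at 0.41 (adjusted p = 3.584e-07, edgeR). Of 10 mRNAs for NMD factors, 8 were higher and 2 lower (Upf3a at -1.39 and Smg8 at -1.91), with a median of 1.63. Beside both lists, 40.4% of all genes tested were higher and 42.2% lower. The 4 mRNAs listed as NMD targets, Smg5, Gadd45b, Ddit3 and Atf3, were all higher (median 2.80, from 2.39 to 3.09) and met the rule for bound RNAs. The study named Smg5, Gadd45b and Ddit3 among the RNAs it called bound in these same libraries. Their height thus follows from that choice and tests nothing. Smg5 is also among the NMD factors above. Gas5, which the study names as a known NMD target too, was not on this list. Each of the 4 listed mRNAs lay above the 1.20 of Snhg15, the highest of the hosts. In the IgG over input comparison none of the 4 passed the test (highest value 0.13), where Gas5 stood at 1.32.

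Other long noncoding RNAs were spread more widely than the hosts. Of 15 listed, 14 had a row and 10 were tested, of which 3 were higher in p-UPF1 than in IgG (Pvt1 at 2.35, Tug1 at 2.29 and Ftx at 0.98) and 7 lower (median of the 10, -0.81). Of all genes tested, 40.4% were higher and 42.2% lower. Among the 7 lower were Neat1 at -2.48 and Malat1 at -0.72. In IgG over input, 8 of the 10 were higher, beside 18.2% of all genes. Rpph1 (1.89) and Kcnq1ot1 (1.36) lay above the 1.32 of Gas5, and Mir17hg (1.09) and Neat1 (1.03) below it.

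**Figure D5:**
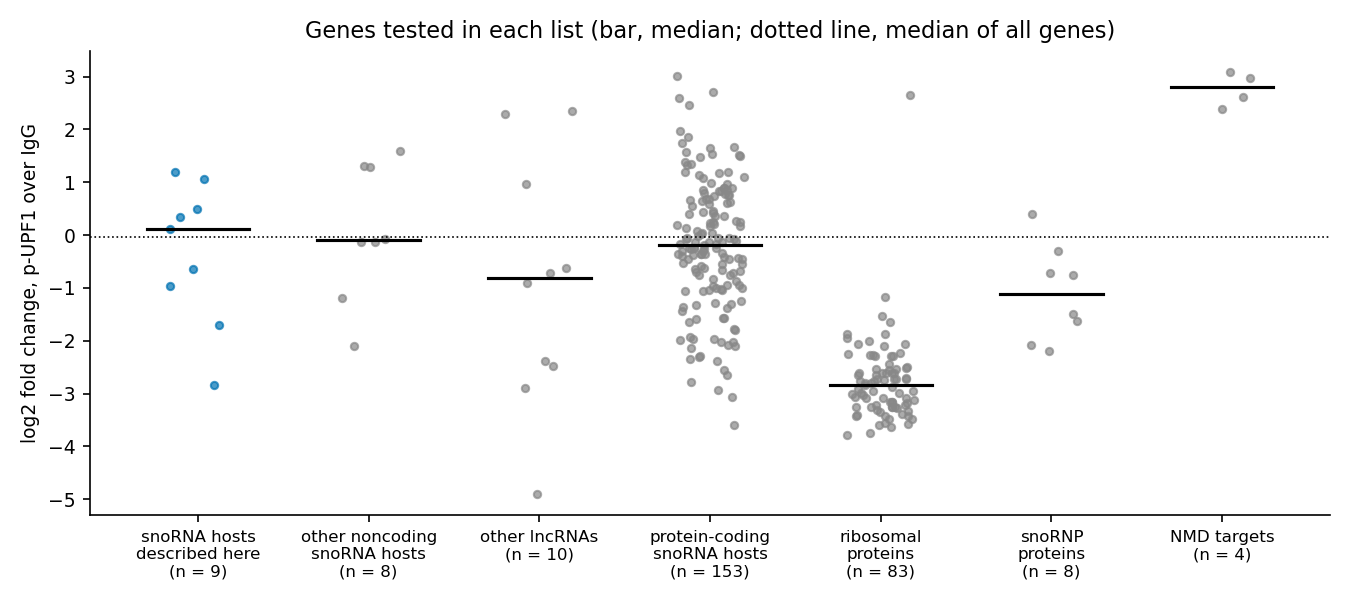
Log2 fold change of p-UPF1 over IgG (y axis) for each tested gene of 7 lists (x axis), with the median of each list as a bar and that of all genes dotted. The 9 hosts, in blue, spread from -2.83 to 1.20 around the median of all genes, while ribosomal protein genes lie near -2.85 and the NMD targets near 2.80. The NMD targets include RNAs that the study had called bound in these libraries. Scaled to equal mitochondrially encoded mRNA, every list would lie higher.

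Gas5 had companions in its pattern over the 9 libraries. By Pearson's r of log2 CPM over 8992 genes with a mean of 10 CPM or more, the most alike were Crebzf (0.998), Lilr4b (0.993), Msl1 (0.992), Tmem87b (0.986) and Pou6f1 (0.986). Crebzf, for example, had group means of 85.1 CPM in the input, 173 in IgG and 103 in p-UPF1. Being highest in IgG follows from the choice by likeness to Gas5, and Pou6f1 met the 10 CPM mean only through IgG (3.79, 113 and 12.2 CPM in input, IgG and p-UPF1). Of the other hosts, Snhg8 was nearest to Gas5 (r = 0.81), followed by Snhg20 and Snhg1 (0.55 each), and Snhg6 was furthest (-0.43). The 9 points form 3 groups by how the RNA was recovered, so r rests mainly on the differences between the groups.

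An overlapping gene limits the row of Snhg6. On the opposite strand, 308 nt of Snhg6 exons are shared with Mcmdc2. The study's methods name a directional kit for these libraries and unstranded mapping for its RNA-seq. Whether reads of these libraries were counted by strand is not given, so reads in the shared stretch may not be assigned to one gene. Mcmdc2 had at most 3 counts in any library.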

How the data were processed

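RNA immunoprecipitation sequencing counts of 9 libraries (3 input, 3 IgG, 3 p-UPF1) were used. The authors deposited raw counts per NCBI Gene ID. The submitters' processing notes name cutadapt, HISAT2, featureCounts and mm10, with no versions. Molecular identifiers are not mentioned, so the reads include PCR copies and the limit of 3 counts covers counting error only. The letters A, B and C in the column names are not the replicate numbers of the labels, and each column was assigned to a group only.

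Counts were tested in R 4.3.3 with edgeR 4.0.16: filterByExpr (minimum count 10, total 15), TMM, glmQLFit and glmQLFTest (two-sided) on all 3 groups with no covariate (6 residual degrees of freedom), and Benjamini-Hochberg adjustment over 13129 genes. Fold changes use a prior count of 0.125. Correlations used log2 CPM from edgeR with a prior count of 2. Of 27179 IDs, 25201 matched RefSeq on GRCm38.p6, which gave symbols, exons, snoRNA genes and sequences. The procedure was tested on simulated data. DESeq2 1.42.0 and limma 3.58.1 were alternatives.

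The hosts, the gene lists and the tests were chosen with earlier results of these data known. Genes were named only from fixed lists: other noncoding hosts, protein-coding hosts (the 3 highest and 3 lowest log2 fold changes over IgG at 10 CPM or more), nested snoRNAs, snoRNP proteins, NMD factors and targets, other long noncoding RNAs, marker genes, and the 5 genes most correlated with Gas5. Mcmdc2 overlaps a host and was looked up for that reason. Some items are not reported here.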

Additional observations from a re-analysis of the deposited data

How the results depend on the processing

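Of 351 values recomputed under 13 planned settings other than leaving out a library, 316 kept their direction and side of the threshold, 18 changed sign, 1 lost its call and 16 gained one in the same direction. Of the 18, 6 had been called, and all 6 of these came from scaling to equal mitochondrially encoded mRNA, which moved the median of all genes by 4.69 (p-UPF1 over IgG) and 5.04 (p-UPF1 over input) on the log2 scale. Under it the hosts counted 9 higher and 0 lower over IgG, 9 higher and 0 lower over the input, and 9 met the rule for bound RNAs, beside 99.4% and 0.0305% of all genes over IgG, 99.4% and 0.0533% over the input, and 96.9% for the rule. The log2 fold changes over IgG were then 3.74 for Gas5, 2.999 for Snhg4, 4.05 for Snhg8 and 1.86 for Snhg20, and over the input 3.54 for Snhg4 and 3.15 for Snhg20. These 6 values lay below the median of all genes there, 4.66 and 5.01. The other 12 changes of sign were of values not called, 11 of them of Snhg6 and 1 of Snhg8. With mitochondrially encoded mRNA equal, Snhg6 gave 5.04 over the input and 0.22 for IgG over input, and Snhg8 gave 4.87 over the input. Snhg6 over IgG was -0.013 with upper-quartile factors and -0.038 with library size alone. Snhg6 over the input was 0.043 with DESeq2's size factors and with DESeq2, 0.021 and 0.13 when TMM took the input or the IgG as its reference, 0.022 with at least 1 CPM in 3 libraries, 0.024 with the 2 groups alone and 0.131 without the low-count filter, which alone of these passed. With snoRNA counts added to the host, Snhg12 lost its call over IgG and gained one for IgG over input (0.47). For IgG over input, Snhg4 passed at 0.27 to 0.32 with upper-quartile factors, library size alone or another TMM reference library, and Snhg12 passed at 0.20 to 0.22 with library size alone or another reference. Without the low-count filter these 2 passed too (0.29 and 0.19), as did Snhg6 for p-UPF1 over IgG (0.17). With the 2 compared groups alone, Snhg4 passed for IgG over input (0.31) and Snhg8 for p-UPF1 over input (-0.14), and the latter also passed without IgG library A (-0.17). The scaling to mitochondrially encoded mRNA gave the other calls gained. Snhg12 also passed at 0.20 without IgG library C. Leaving out each library in turn, the number of hosts lower in IgG than in the input ranged from 0 to 1, with 1 only without IgG library A (Snhg6), and no called value of 243 changed sign. Of values not called, Snhg6 over the input ranged from -0.027 to 0.017 and Snhg12 for IgG over input from -0.019 to 0.20. The planned replicate block on the labels' replicate numbers was not run, because the columns carry letters. A replicate block on those letters, chosen after seeing the data, left 4 hosts higher and 4 lower over IgG, 5 and 2 over the input, and 6 and 0 for IgG over input, and 0 hosts met the rule for bound RNAs. Deviations of libraries with the same letter correlated at 0.032 to 0.054 for A and B, above every pair with different letters. For C they correlated at -0.005 to 0.008, and each C library correlated better with a library of another letter. Whether libraries of one letter share a lysate is not stated, so the main fit used no pairs. Depth limits Snhg3, and Snhg20 in p-UPF1.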
